A study of Mus musculus with 22 samples.

Results

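Type I interferon-stimulated genes were followed in BMDM, the macrophages that mouse marrow (C57/bl6) yields in medium conditioned by L929 cells. The members were chosen as 35 listed gene symbols. Of these, 34 were found among 19505 genes in the table (22206 tested probe sets), each with 1 probe set, and Ifi44 was not matched. The 22 arrays held 6 samples of untreated M0 macrophages (Ctrl), 6 with β-hydroxy-β-methylbutyrate alone (HMB, a leucine metabolite, 1 mM), 5 with lipopolysaccharide alone (LPS, 10 ng/ml) and 5 with both (HMB+LPS), all read after 48 h. Replicate numbers ran from 1 to 6 without LPS and from 2 to 6 with LPS. The comparisons asked how LPS moved these genes and whether HMB changed their level in M0 cells or in cells given LPS. Whether replicates came from separate animals or cultures is not stated in the labels. The p-values therefore describe only how far these samples spread, and that spread may be technical. In cultures measured as a whole, fewer cells of a type and less RNA per cell cannot be told apart.

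Type I interferons signal through the receptor chains Ifnar1 and Ifnar2 and the kinases Jak1 and Tyk2 to a complex that holds Stat2 and Irf9 and binds the interferon-stimulated response element (ISRE) in the promoters of its target genes. In macrophages, LPS reaches this pathway through Tlr4 and its adaptor Ticam1 (TRIF), which activate Irf3 and the secretion of interferon β, encoded by Ifnb1. The products of the target genes sense viral RNA, block its translation and replication, and feed back on the pathway, Irf7 by raising interferon production and Usp18 by restraining the receptor.

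Promoter sequences show which of these genes carry the element in the letters just before their start. RefSeq windows (GRCm38.p6, 250 bases before the start) matched 25 of the 34 genes. The core of the element, GAAANNGAAA read on either strand with overlapping matches counted, was present in 8 of the 25 (32.0%) and in 3.46% of 27025 genes with a window. The NF-kB core, GGGA and CC with any 4 bases between them, read in the same way, was present in 7 of the 25 (28.0%) and in 19.7% of all genes. In Stat2, Ifit1, Ifit3 and Rsad2 the ISRE core lay on the strand opposite to the gene and appears as its reverse complement. In the stretches shown next, each written on the strand of its gene, capitals mark the cores, which stand once in Stat2, Oas3 and Rsad2 and overlap in Isg15, Oas1a and Bst2.
Isg15 (chr4:156200855-156200916): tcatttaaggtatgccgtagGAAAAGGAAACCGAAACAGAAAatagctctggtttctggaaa
Ifit1 (chr19:34640765-34640833): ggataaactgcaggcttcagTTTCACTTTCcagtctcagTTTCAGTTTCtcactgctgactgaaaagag
Ifit3 (chr19:34583353-34583436): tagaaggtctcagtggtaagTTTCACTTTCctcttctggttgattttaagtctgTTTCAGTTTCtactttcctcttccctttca
Oas1a (chr5:120907526-120907565): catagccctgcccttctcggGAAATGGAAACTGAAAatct
Oas3 (chr5:120777705-120777754): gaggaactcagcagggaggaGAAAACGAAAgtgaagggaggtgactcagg
Rsad2 (chr12:26456543-26456592): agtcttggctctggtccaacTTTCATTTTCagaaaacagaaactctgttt
Bst2 (chr8:71537567-71537622): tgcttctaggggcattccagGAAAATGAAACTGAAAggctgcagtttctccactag
Stat2 (chr10:128270256-128270305): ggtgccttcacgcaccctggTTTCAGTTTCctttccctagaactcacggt
A match describes these letters, and no match says only that the letters are not in this window.

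The arrays fell apart along a difference that the labels do not give. Most counts of interferon-stimulated genes called for LPS differed along it in fits made on each side alone. Without LPS, numbers 5 and 6 differed from numbers 1 to 4 in 4271 probe sets. Arrays were placed along this difference with 3225 of these probe sets, which were not interferon genes and had no LPS effect detected over all arrays. A probe set could pass this filter and still move with LPS on some arrays. Whether the placement of the arrays with LPS is independent of their LPS response was not tested. On this scale 8 arrays (set B: Ctrl 5 and 6, HMB 5 and 6, LPS 3 and 6, HMB+LPS 5 and 6) lay apart from the other 14 (set A). The sets were defined from the data and are not groups of the study. LPS responses differed between them: the averaged LPS effect on Nos2, the inducible nitric oxide synthase, reached 11.84 ± 0.31 log2 units (SE) among set A arrays and 2.87 ± 0.29 among those of set B, and Nos2 stood at 5.64 and 5.74 in LPS 3 and LPS 6 against 4.09 and 5.37 in Ctrl 5 and Ctrl 6. Positive control probe sets lay 3.65 to 5.26 log2 units above negative ones in set A and 4.70 to 5.08 in set B, and the 6 arrays under 4 (Ctrl 1, HMB 1, LPS 2, LPS 5, HMB+LPS 2 and HMB+LPS 3) were all in set A. Replicates also lay closer together in set B, where the SD of the difference between 2 arrays of a group over all probe sets was 0.50 to 0.56, against 0.58 to 1.05 in set A. Macrophage markers were high on every array (Adgre1 15.22 to 17.42, Csf1r 15.47 to 17.19).

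Before any treatment with LPS, the interferon-stimulated genes differed more between replicate numbers 1 to 4 than between treatments. Their mean log2 signal over 34 genes was 10.30, 11.91, 12.30 and 13.19 in Ctrl 1 to 4 and 9.56, 12.07, 12.32 and 13.04 in HMB 1 to 4. Arrays of the same number thus lay close together whether or not they had HMB, and number 1 was lowest and number 4 highest in both groups. Numbers 5 and 6 stood at 11.66 and 11.66 in Ctrl and at 11.20 and 11.30 in HMB. With LPS, where number 1 has no array, the range was narrower, from 11.96 to 13.00 in LPS and from 12.09 to 12.82 in HMB+LPS. Of the 34 genes, 33 were higher in number 4 than in number 1 (mean of Ctrl and HMB), by a median of 3.11 log2 units. The exception was Trim25, a ubiquitin ligase of the RNA sensing pathway, at 13.73 in number 4 and 13.82 in number 1. The widest gap was that of Ifit1, which binds viral RNA that lacks a host cap, with 6.34 log2 units between 11.98 in number 4 and 5.65 in number 1. Samd9l, an antiviral translation inhibitor, and Ifit3, a partner of Ifit1, followed with gaps of 5.35 and 5.37.

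**Figure D1:**
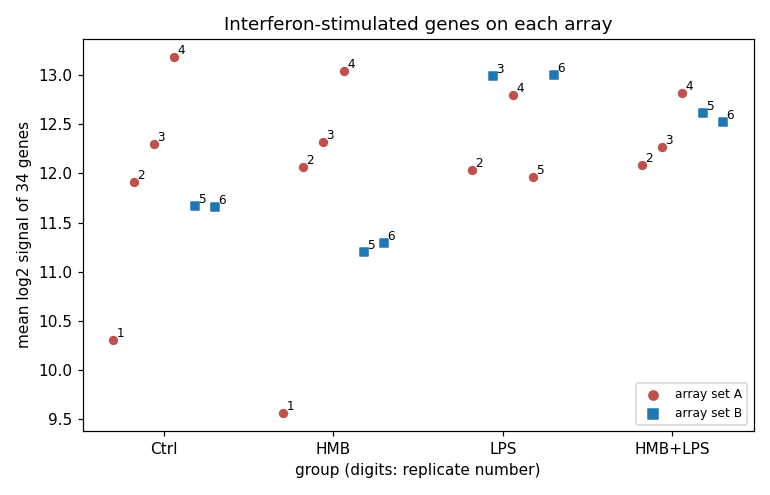
Mean log2 signal of the 34 interferon-stimulated genes (y axis) on each array by group (x axis), with the replicate number beside each point and array sets A (circles) and B (squares) in colour. Ctrl 1 and HMB 1 are the lowest arrays, at 10.30 and 9.56, and the 10 arrays with LPS lie between 11.96 and 13.00.

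Within set A the SD among the 4 Ctrl arrays had a median of 1.25 over the 34 genes against 0.41 over all probe sets, and 24 of the 34 were above the 95th percentile of all probe sets (0.95). In HMB 27 of 34 were above the percentile of that group (1.06), whereas among the 3 LPS arrays of the set 2 were (1.23). Among the 3 HMB+LPS arrays it was 3 (1.03). Number 1 has no array with LPS, so the counts with and without LPS compare unlike arrays. The arrays numbered 1 also had control separations of 3.96 and 3.78, below the 4.43 to 5.26 of numbers 2 to 4 without LPS. The same held with LPS, where the arrays of low separation in set A had means of 12.04 and 11.96 (LPS 2 and 5) and 12.09 and 12.27 (HMB+LPS 2 and 3), below the 12.80 of LPS 4 and the 12.82 of HMB+LPS 4. In set A the 6 arrays of low separation were thus the lowest of their groups, and the part of control separation in the level of these genes was not tested. Another 97 interferon-stimulated genes outside the 34 had mean signals of 10.19, 10.94, 11.15 and 11.67 in Ctrl 1 to 4, in the same order.

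**Figure D2:**
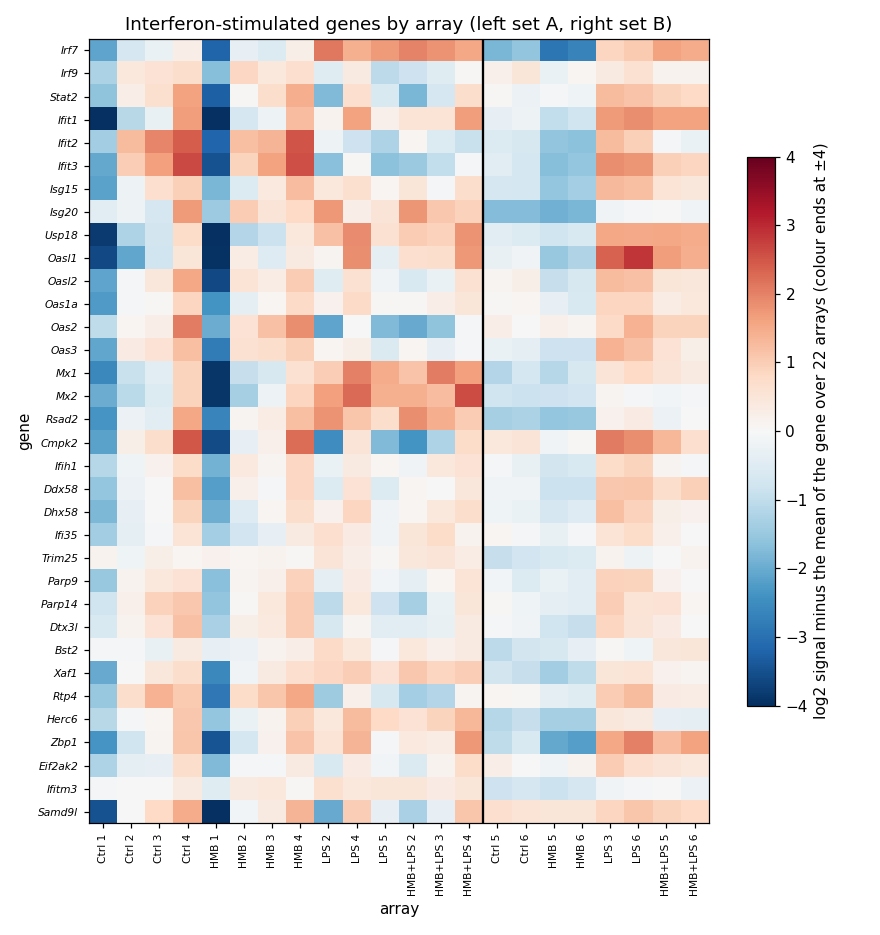
Log2 signal of each interferon-stimulated gene (rows) on each array (columns, set A left of the line and set B right of it), minus the mean of the gene over 22 arrays. Colours end at ±4; number 1 without LPS is blue for nearly all genes, and in set B the arrays with LPS stand above those without it.

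Over all 22 arrays, LPS raised few of these genes past the test, and each one that passed was higher with LPS. For LPS minus Ctrl the limma fit called 1 of 34, Irf7, at 2.46 ± 0.55 log2 units (SE, adjusted p = 0.0208, n = 5 and 6), where 1.08% of all probe sets were called higher. For HMB+LPS minus HMB it called 3, Irf7 (3.26 ± 0.55), Usp18 (2.58 ± 0.68) and Mx1 (2.25 ± 0.60), where 1.99% of all probe sets were called higher. The LPS effect averaged over both HMB states had 11 higher members, or 32.4%, against 5.00% of all probe sets, and a median difference of 0.56 beside 0.01 over all probe sets. The 11 were Irf7 (2.86), Usp18 (2.47), Oasl1 (2.39), Mx1 (2.11), Ifit1 (2.11), Zbp1 (1.96), Mx2 (1.93), Rsad2 (1.502), Xaf1 (1.21), Ifi35 (0.69) and Bst2 (0.54), with adjusted p from 3.66e-05 to 0.043. The call of Irf7 for LPS minus Ctrl was lost without Ctrl 1, LPS 2, LPS 4 or LPS 5, each in turn. Array quality weights left 6 of the 11 calls in number, as did leaving out the arrays of low control separation.

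Irf7, the interferon regulatory factor that amplifies interferon production, was the one gene whose arrays with LPS all lay above all those without it, which held for 0.567% of all probe sets. In set A it stood at 12.92, 14.37, 14.77 and 15.29 in Ctrl, at 11.83, 14.72, 14.47 and 15.27 in HMB, at 17.15, 16.45 and 16.74 in LPS and at 17.01, 16.84 and 16.59 in HMB+LPS. In set B it stood at 13.20 and 13.45 in Ctrl, 12.13 and 12.37 in HMB, 15.90 and 16.08 in LPS, and 16.65 and 16.53 in HMB+LPS. The averaged LPS effect was 2.59 ± 0.48 in set A (adjusted p = 0.000997) and 3.50 ± 0.13 in set B (adjusted p = 0.000102).

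In set B, nearly the whole list rose with LPS. For the averaged effect 30 of 34 (88.2%) were called higher and none lower, where 3.14% of all probe sets were called higher, and the median was 1.14 log2 units beside −0.02 over all probe sets. All 4 arrays with LPS lay above all 4 without it for 32 of the 34 genes, and for 4.26% of all probe sets. For LPS minus Ctrl alone 15 were called (0.509% of all probe sets higher) and for HMB+LPS minus HMB alone 20 (2.89%). Each of these contrasts compared 2 arrays with 2. The counts rest on the small spread within set B: with the spread shared by both sets, 2 members (Irf7 and Trim25), 0 and 1 were called in the same 3 contrasts. With that shared spread, set A had more calls than set B in each of the 3. Standard errors of the averaged effect, with the spread of each set alone, had a median of 0.13 in set B and 0.49 in set A. Leaving out single arrays of set B gave 20 to 24 calls for the averaged effect and 0 to 8 for LPS minus Ctrl, with 0 without Ctrl 5, Ctrl 6 or LPS 6.

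Among the RNA sensors of set B, Zbp1, a sensor of Z-form nucleic acid that triggers necroptosis, had the largest effect, 3.07 ± 0.18 (adjusted p = 0.000428). It was at 7.998 and 8.398 in Ctrl, 6.97 and 6.81 in HMB, 10.56 and 11.03 in LPS, and 10.24 and 10.63 in HMB+LPS. The helicases that detect viral RNA rose less, Ddx58 (RIG-I) by 1.47, Dhx58 by 1.04 and Ifih1 (MDA5) by 0.84. Eif2ak2 (PKR), the kinase that halts translation on double-stranded RNA, was at 0.58 ± 0.15 and did not pass (adjusted p = 0.0807).

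The 5 members of the OAS family, whose enzymes make the signal that activates RNase L or resemble those that do, all rose in set B. Oasl1 rose by 2.88 ± 0.16, from 7.23 and 7.38 in Ctrl and 6.01 and 6.30 in HMB to 9.88 and 10.39 in LPS and 9.19 and 8.97 in HMB+LPS, with no overlap between arrays with and without LPS. Oas3 rose by 1.43, Oasl2 by 1.15, Oas2 by 0.83 and Oas1a by 0.82 (adjusted p over the 5 from 0.000386 for Oasl1 to 0.0388 for Oas2). Oas1a was at 11.56 and 11.59 in Ctrl, 11.19 and 10.90 in HMB, 12.38 and 12.38 in LPS and 11.82 and 11.95 in HMB+LPS. The 3 Ifit genes, whose products bind foreign RNA and translation factors, rose as well. Ifit3 rose by 2.46 ± 0.12 and was at 12.42 and 12.18 in Ctrl, 11.17 and 11.32 in HMB, 14.74 and 14.64 in LPS and 13.81 and 13.72 in HMB+LPS. Ifit1 rose by 2.28 ± 0.12, from 10.19 and 10.33 in Ctrl and 9.54 and 9.73 in HMB to 12.23 and 12.40 in LPS and 12.14 and 12.15 in HMB+LPS. Ifit2 rose by 1.58 ± 0.13, and no array with LPS overlapped one without it for any of the 3.

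Of the genes around Isg15, the ubiquitin-like modifier, all 7 rose in set B. Usp18, the protease that removes Isg15 and restrains the interferon receptor, rose by 2.12 ± 0.12, from 11.99 and 11.87 in Ctrl and 11.63 and 11.83 in HMB to 13.97 and 13.95 in LPS and 13.99 and 13.91 in HMB+LPS. Isg15 itself rose by 1.94 ± 0.11. Isg15 was at 8.55 and 8.53 in Ctrl, 7.69 and 7.85 in HMB, 10.51 and 10.43 in LPS and 9.77 and 9.68 in HMB+LPS. The rises of Herc6 (the mouse ligase for Isg15), Dtx3l and Parp9 (partners in DNA repair and antiviral signalling), Parp14 and Trim25 were 1.20, 0.90, 0.82, 0.80 and 0.73. The nucleotide enzymes Isg20, an RNA exonuclease, Rsad2 (viperin), which makes a chain-terminating nucleotide, and its neighbour Cmpk2, a mitochondrial nucleotide kinase, rose by 1.71, 1.49 and 1.29. Rsad2 was at 10.35 and 10.42 in Ctrl, 10.13 and 10.16 in HMB, 11.87 and 12.03 in LPS and 11.45 and 11.68 in HMB+LPS, again without overlap. Of the effectors at membranes, the dynamin-like GTPases Mx1 and Mx2 rose by 1.47 and 0.79, Rtp4 by 0.92, Bst2 (tetherin, which holds budding virions at the surface) by 0.89 and Ifitm3, which blocks viral fusion, by 0.65. Xaf1, a promoter of apoptosis, rose by 1.33.

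For the remaining genes that rose in set B, the 4 arrays without LPS and the 4 with it lay in ranges that did not meet. Mx1 was at 9.67 and 10.15 in Ctrl, 9.71 and 10.19 in HMB, 11.37 and 11.64 in LPS and 11.37 and 11.22 in HMB+LPS. Wide steps were also those of Isg20, from 9.77 to 9.97 without LPS to 11.54 to 11.71 with it, of Ddx58, from 11.68 to 12.41 to 13.26 to 13.67, and of Xaf1, from 11.65 to 12.31 to 13.16 to 13.57. Gaps were narrow for Ifih1, whose highest array without LPS was at 13.27 and lowest array with LPS at 13.28, Parp14 (12.19 and 12.22) and Dtx3l (11.99 and 12.02). Cmpk2 (11.32 and 11.47), Parp9 (10.55 and 10.63), Oasl2 (14.88 and 15.07) and Bst2 (15.88 and 16.06) had gaps of this kind too. The same edges were read for Oas3 (11.54 and 12.05), Dhx58 (11.26 and 11.61), Rtp4 (11.46 and 11.69), Herc6 (12.00 and 12.52), Trim25 (13.13 and 13.45) and Ifitm3 (16.34 and 16.78).

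Of the factors that carry the signal, Stat2 rose in set B by 1.12 ± 0.12, from 13.46 and 13.21 in Ctrl and 13.37 and 13.27 in HMB to 14.71 and 14.56 in LPS and 14.32 and 14.22 in HMB+LPS. Its partner Irf9 was at 0.20 ± 0.15 (adjusted p = 0.534), with 11.38 and 11.66 in Ctrl, 10.93 and 11.25 in HMB, 11.53 and 11.81 in LPS and 11.33 and 11.33 in HMB+LPS, so that its groups overlapped. Ifi35, an interferon-induced leucine zipper protein, was at 0.47 ± 0.13 (adjusted p = 0.105), with 10.85 and 10.68 in Ctrl, 10.47 and 10.69 in HMB, 11.32 and 11.50 in LPS and 10.97 and 10.77 in HMB+LPS, and its groups overlapped. Samd9l was at 0.37 ± 0.12 (adjusted p = 0.159), with 13.45 to 13.63 without LPS and 13.77 to 14.07 with it.

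In set A, 4 of the same genes were called higher, a share near that of all probe sets, and the rest split in direction. The averaged effect was called higher for Mx2 (2.68 ± 0.62), Usp18 (2.61 ± 0.71), Irf7 and Mx1 (2.53 ± 0.61) and lower for none. These are 11.8% of the members, where 8.15% of all probe sets were called higher and 11.6% lower, or 19.7% in either direction. All 4 were among the 30 of set B. For LPS minus Ctrl in this set only Irf7 was called (4.22% of all probe sets higher), and for HMB+LPS minus HMB Irf7 and Mx2 (4.46%). The median of the averaged effect was 0.35, and 24 of 34 differences were above 0. The lowest were those of Oas2 (−1.64 ± 0.61), Ifit3 (−1.57 ± 0.86) and Ifit2 (−1.37 ± 0.76), which did not pass (adjusted p = 0.0765, 0.248 and 0.256). With the replicate number as a block, an alternative added after the data were seen, these 3 were called lower, Ifit3 at −2.58 ± 0.23 (adjusted p = 1.62e-05), Oas2 at −2.22 ± 0.26 (0.000109) and Ifit2 at −2.30 ± 0.37 (0.00111). In all, 5 members were then called higher and 11 lower, or 47.1%, where 22.1% of all probe sets were called in either direction. Number 1 has no array with LPS, and LPS 5 is the only array numbered 5 in set A. Under the block none of these arrays adds to the averaged effect. The fit without Ctrl 1 and HMB 1 given below also takes out number 1, so both fits are not separate checks.

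Mx2 was at 8.21, 9.13, 9.65 and 11.10 in Ctrl 1 to 4, at 6.32, 8.86, 9.99 and 11.05 in HMB 1 to 4, at 11.83, 12.45 and 11.62 in LPS and at 11.63, 11.43 and 12.82 in HMB+LPS. Its arrays with LPS all lay above those without it in set A, as did those of Irf7 and Mx1. This held for 3 of the 34 members and for 4.59% of all probe sets. Ifit3 was at 10.84, 13.84, 14.51 and 15.52 in Ctrl 1 to 4, at 9.37, 13.76, 14.47 and 15.44 in HMB 1 to 4, at 11.19, 12.93 and 11.23 in LPS and at 11.40, 11.89 and 12.78 in HMB+LPS. All 6 of its arrays with LPS thus lay between number 1 and the others without LPS. For Usp18, set A ran from 8.05 in HMB 1 to 13.17 in Ctrl 4 without LPS and from 13.03 in LPS 5 to 14.31 in LPS 4 with it, which overlap only through Ctrl 4. Ifit2 was at 9.95, 12.62, 13.32 and 13.77 in Ctrl 1 to 4, at 8.17, 12.55, 12.69 and 13.86 in HMB 1 to 4, at 11.15, 10.52 and 10.11 in LPS and at 11.43, 10.79 and 10.47 in HMB+LPS, in the same arrangement as Ifit3. Oas2 ran from 9.29 in HMB 1 to 13.32 in Ctrl 4 without LPS, and from 9.17 in LPS 2 to 11.29 in LPS 4 with it. Stat2 ran from 10.16 in HMB 1 to 15.03 in Ctrl 4 without LPS, and from 11.59 in HMB+LPS 2 to 14.14 in HMB+LPS 4 with it.

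**Figure D3:**
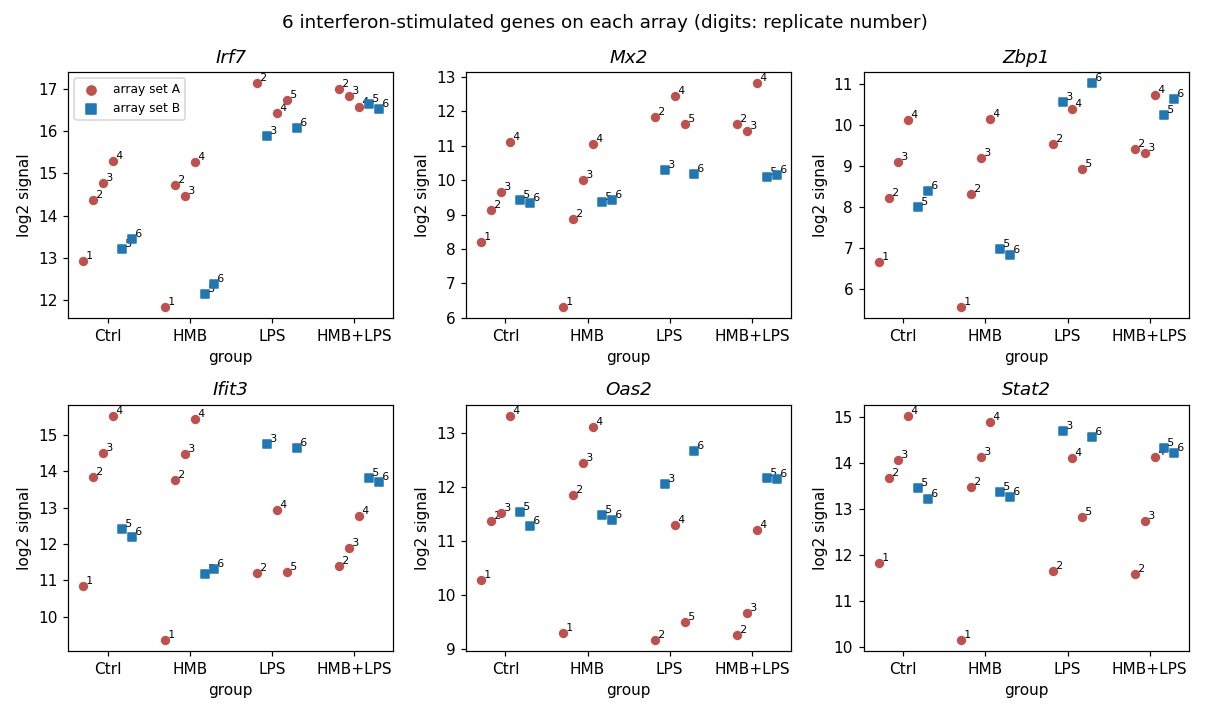
Log2 signal (y axis) of Irf7, Mx2, Zbp1, Ifit3, Oas2 and Stat2 on each array by group (x axis), with replicate numbers and array sets A (circles) and B (squares). For Irf7 all arrays with LPS lie above all without it, whereas for Ifit3 the arrays with LPS of set A lie at 11.19 to 12.93, between number 1 and numbers 2 to 4 without LPS.

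Some directions in set A changed without number 1, which has no array with LPS. Without Ctrl 1 and HMB 1, a comparison chosen after the values were seen, the averaged effect was called higher for the same 4 genes (11.8%) and lower for 9 (26.5%), where 9.06% of all probe sets were called higher and 13.7% lower. The median was 0.01, with 17 differences above 0 and 17 below. The 9 were Ifit3 (−2.69 ± 0.42), Ifit2 (−2.39 ± 0.31), Oas2 (−2.26 ± 0.48), Cmpk2 (−2.01 ± 0.67), Rtp4 (−1.80 ± 0.32), Parp14 (−1.04), Irf9 (−1.01), Oas3 (−0.82) and Dtx3l (−0.82), with adjusted p from 8.12e-05 to 0.0493. In the same fit Irf7 (1.98), Mx2 (2.0015), Mx1 (1.78) and Usp18 (1.70) stayed higher, and Isg15 was at −0.05. Leaving out the 6 arrays of low control separation leaves 1 array each of LPS and HMB+LPS in set A, so calls from that fit are not given. Its averaged effect was 0.25 for Isg15 and −0.64 for Oas3.

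**Figure D4:**
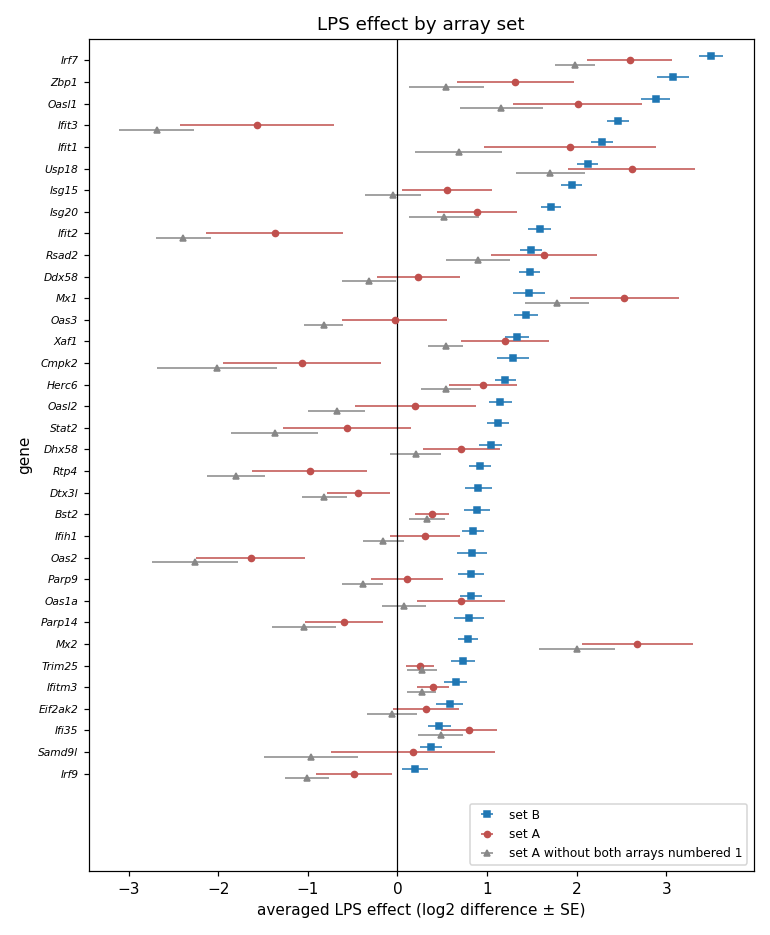
LPS effect averaged over both HMB states (x axis, log2 difference ± SE) for each of the 34 genes (y axis, ordered by set B) in set B (squares), in set A (circles) and in set A without both arrays numbered 1 (triangles). All effects of set B lie above 0, whereas those of set A run from −1.64 to 2.68.

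Whether the LPS effect on these genes differed between the sets depended on the same arrays. In a fit of 8 means (4 groups in 2 sets), the difference between the sets was called for 0 of 34 members for LPS minus Ctrl (2 with an unadjusted p under 0.05), where 3.10% of all probe sets were called. For the averaged effect it was also called for 0 of 34 (7 unadjusted), where 7.54% of all probe sets were called. Ifit3 had the smallest p, with an effect 4.02 ± 1.26 higher in set B (adjusted p = 0.0592). Without both arrays numbered 1 the averaged effect was called higher in set B for 17 members and lower for none, where 1554 of all 22206 probe sets were called higher and 898 lower. Among the 17 were Ifit3 (5.14), Ifit2 (3.97), Cmpk2 (3.30), Oas2 (3.09), Rtp4 (2.72), Zbp1 (2.53), Stat2 (2.50), Oas3 (2.26) and Isg15 (1.99). Mx1 (−0.31), Mx2 (−1.21) and Usp18 (0.42) did not pass.

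Most inflammatory genes of LPS rose less among set B arrays than among those of set A. Of 16 reference genes of LPS and NF-kB, 15 rose in set A with a median of 7.74 and 12 in set B with a median of 2.10. The averaged effect on Lcn2, an iron-siderophore binding protein, came to 13.87 (set A) and 7.90 (set B), that on Ccl5, a chemokine that interferon also induces, 6.71 and 4.08, and that on the cytokine Il6 10.12 and 0.87. The difference was called for each (adjusted p = 9.8e-08, 0.000186 and 3.18e-08).

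Interferon transcripts lay at the level of negative controls at 48 h. All 19 matched interferon genes lay between 1.90 and 7.35 on every array, around or below the median of the negative control probe sets (6.53). Ifnb1 was at 2.40 to 3.71 on all 22 arrays, and its averaged LPS effect stood at 0.15 ± 0.24 (set A) and 0.30 ± 0.27 (set B), which did not pass. The receptor chains were well above this level. Ifnar1 rose with LPS by 1.45 ± 0.19 in set A, from 12.12 to 12.90 without LPS to 13.84 to 14.21 with it, and was at −0.01 ± 0.13 in set B, a difference between the sets that was called (adjusted p = 0.00163). Ifnar2 rose by 0.54 in set A and was at 0.25 in set B (adjusted p = 0.404). Of the receptors of other interferons, Ifngr2 rose (1.01) and Il10rb (−1.45) and Ifngr1 (−1.28) fell in set A. Tlr4 (−0.68 in set A, 0.02 in set B) and Ticam1 (−0.54 and −0.27) did not pass. In the list of sensing genes 1 of 14 rose and 3 fell in set A, and 2 rose and 1 fell in set B, beside 8.15% and 11.6% of all probe sets called higher and lower in set A and 3.14% and 2.78% in set B. Those of set A were Tbk1 (0.64), Tlr9 (−2.09), Mavs (−1.06) and Tlr7 (−0.95), and those of set B Ikbke (1.28), Ly96 (0.81) and Tlr9 (−1.07).

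Of the 12 matched genes of JAK-STAT and IRF signalling outside the 34, 3 rose and 3 fell in set A and 2 rose in set B, and of 10 matched brakes on interferon signalling 5 rose and 1 fell in set A and 3 rose in set B. The shares of all probe sets called higher and lower were 8.15% and 11.6% in set A and 3.14% and 2.78% in set B. Jak2, a kinase of many cytokine receptors, rose by 3.87 in set A and by 1.12 in set B, and the difference was called (adjusted p = 1.26e-06). Stat3 (1.09) and Irf8 (0.77) also rose in set A, where Irf5 (−1.94), Irf4 (−1.19) and Tyk2 (−0.54) fell, and Batf2 rose in set B (1.17). Irf1, an interferon-induced factor, and Irf3 did not pass in either set (0.05 and 0.57 for Irf1, −0.82 and −0.38 for Irf3). Among the brakes, Socs1, which blocks the receptor kinases, rose by 7.35 ± 0.41 in set A, from 2.62 to 3.88 without LPS to 9.07 to 12.00 with it. In set B it rose by 1.04 ± 0.23, and the difference was called (adjusted p = 1.38e-06). Socs3 rose by 9.30 in set A and 1.92 in set B, and Cish by 4.04 and 1.54. Ptpn2 (0.73) and Pias4 (0.89) rose and Irf2bp2 (−1.83) fell in set A.

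Interferon-stimulated genes outside the 34 numbered 97. For LPS minus Ctrl over all arrays 9 rose (median 0.44), where 1.08% of all probe sets were called higher. For the averaged LPS effect, 23 rose and 3 fell in set A (median 0.34), and 54 rose and none fell in set B (median 0.68), where the shares of all probe sets called higher and lower were 8.15% and 11.6% in set A and 3.14% and 2.78% in set B. The difference between the sets in this effect was called for 13 of the 97, 6 higher and 7 lower in set B, against 4.62% and 2.91% of all probe sets. In set B the smallest p belonged to Ms4a4c (4.59), followed by Ifi209 (2.91), Ifi213 (2.71), Cd274 (PD-L1, 2.26), Ifit3b (2.37) and Phf11d (2.05). Whether the probe sets of Ifit3 and of its near copy Ifit3b measure both transcripts is not known here. In set A the smallest belonged to Stx11 (3.78), Casp4 (2.70), Mlkl (2.85), Ifitm1 (2.63), Slfn4 (5.69) and Ms4a6d (2.99). Cxcl10, an interferon-induced chemokine, rose by 2.14 ± 0.56 in set A and was at 0.24 ± 0.19 in set B (adjusted p = 0.574), and the difference was not called (adjusted p = 0.198).

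Markers of other cells were checked beside these results. The plasmacytoid dendritic cell, a strong source of interferon, was represented by 9 markers, of which Siglech, Ccr9, Ly6d, Spib, Klk1 and Pacsin1 reached at most 6.47 on any array, while Tcf4, Ptprs and Cox6a2 were higher and Ptprs (−1.63) and Cox6a2 (−5.07) fell with LPS in set A. The list mean was 6.62 to 7.45 without LPS and 6.06 to 6.399 with LPS in set A, and 6.16 to 6.71 and 6.23 to 6.57 in set B. Markers of lymphocytes, conventional dendritic cells and granulocyte precursors were low as well, apart from Cd4 (7.16 to 9.76), Ccr7 (6.44 to 8.87), Csf3r (9.63 to 11.97) and S100a8, of which S100a8 rose with LPS by 6.01 in set A and 2.77 in set B. Stromal markers moved with LPS in set A, where Dcn rose by 8.36 and Lum by 4.52 while 5 fell, among them Acta2 (−4.12), Col1a2 (−4.27), Tagln (−4.01) and Col1a1 (−2.29), and of the macrophage markers C1qa, C1qb, C1qc, Mertk and Csf1r fell there and Itgam rose. In set B no stromal marker was called and 5 macrophage markers rose, Fcgr1 by 1.33. The part of these cells in the results on interferon-stimulated genes was not tested.

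Over all 22 arrays, HMB moved none of the interferon-stimulated genes past the test. For HMB minus Ctrl 0 of 34 were called by limma (0% of all probe sets, 0 members with an unadjusted p under 0.05 by limma or by the methods' t-test). The median difference was −0.26, beside −0.02 over all probe sets, with 29 of 34 below 0 and standard errors of 0.22 to 0.95. The smallest p belonged to Dtx3l (−0.41 ± 0.37), Irf7 (−0.53 ± 0.52), Oasl2 (−0.60 ± 0.62) and Zbp1 (−0.59 ± 0.63). For HMB+LPS minus LPS 0 of 34 were called as well (0% of all probe sets, again 0 unadjusted by both tests), with a median of −0.11. The smallest p belonged to Bst2 (0.18 ± 0.25), Dhx58 (−0.28 ± 0.43), Rtp4 (−0.44 ± 0.70) and Oas3 (−0.37 ± 0.61). The difference between both HMB effects was called for 0 of 34 (0% of all probe sets, 0 unadjusted), and standard errors of 0.33 to 1.41 limit what it could show. Irf7 (0.79 ± 0.78), Ddx58 (0.46), Zbp1 (0.57) and Dtx3l (0.31) had the smallest p.

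At matched replicate numbers the mean of the 34 genes in HMB minus that in Ctrl was −0.74, 0.16, 0.01, −0.14, −0.47 and −0.36 for numbers 1 to 6. It was thus small beside the 2.89 log2 units between Ctrl 1 and Ctrl 4. Within set A the counts were 0 of 34 for HMB minus Ctrl (0% of all probe sets) and 0 of 34 for HMB+LPS minus LPS (0%), with 0 unadjusted in both. The smallest p belonged to Parp14 (−0.37 ± 0.57), Cmpk2, Ifit2 and Oasl1 in the former and to Trim25 (0.15 ± 0.23), Isg20, Ddx58 and Oasl1 in the latter.

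In set B, where replicates lay close together, HMB arrays stood lower for many members. For HMB minus Ctrl 0 of 34 passed (0.482% of all probe sets called in either direction), 14 (41.2%) had an unadjusted p under 0.05, as did 15.5% of all probe sets, and 29 of 34 were below 0 with a median of −0.37. The smallest p belonged to Ifit3 (−1.05 ± 0.17), Irf7 (−1.08 ± 0.19), Ifit2 (−1.02 ± 0.19) and Oasl2 (−0.97 ± 0.18), with adjusted p from 0.0674 to 0.0854. Among the 6291 probe sets that passed a filter on dim signals, which held 31 members, 1635 were called in either direction. Of the 31 members 11 were called, all lower. The number of all probe sets called lower is not given for this filter, so whether the members stood out from them was not tested. For HMB+LPS minus LPS, Ifit2 (−1.26 ± 0.19, adjusted p = 0.0241), Ifit3 (−0.93 ± 0.17, adjusted p = 0.0399) and Rtp4 (−0.82 ± 0.17, adjusted p = 0.0488) fell, which is 8.82% of the members where 2.49% of all probe sets were called lower. In the same contrast 9 of the 16 reference genes of LPS and NF-kB (median 1.39) and 3 of 8 stromal markers were called higher, where 2.2% of all probe sets were. The list mean of the stromal markers was 6.33 to 6.51 in LPS and 7.28 to 7.62 in HMB+LPS. Nos2 stood at 9.85 and 9.78 in HMB+LPS 5 and 6 against 5.64 and 5.74 in LPS 3 and 6. The part of this wider difference between the groups was not tested. Ifit2 was at 12.61 and 12.30 in LPS and 11.31 and 11.08 in HMB+LPS, and the 2 groups did not overlap. Dhx58 (−0.85 ± 0.18) missed the threshold at 0.0502, and Irf7 (0.60 ± 0.19, adjusted p = 0.124) lay on the other side of 0. None of the 3 calls remained when any single array of set B was left out or when the spread was shared by both sets.

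**Figure D5:**
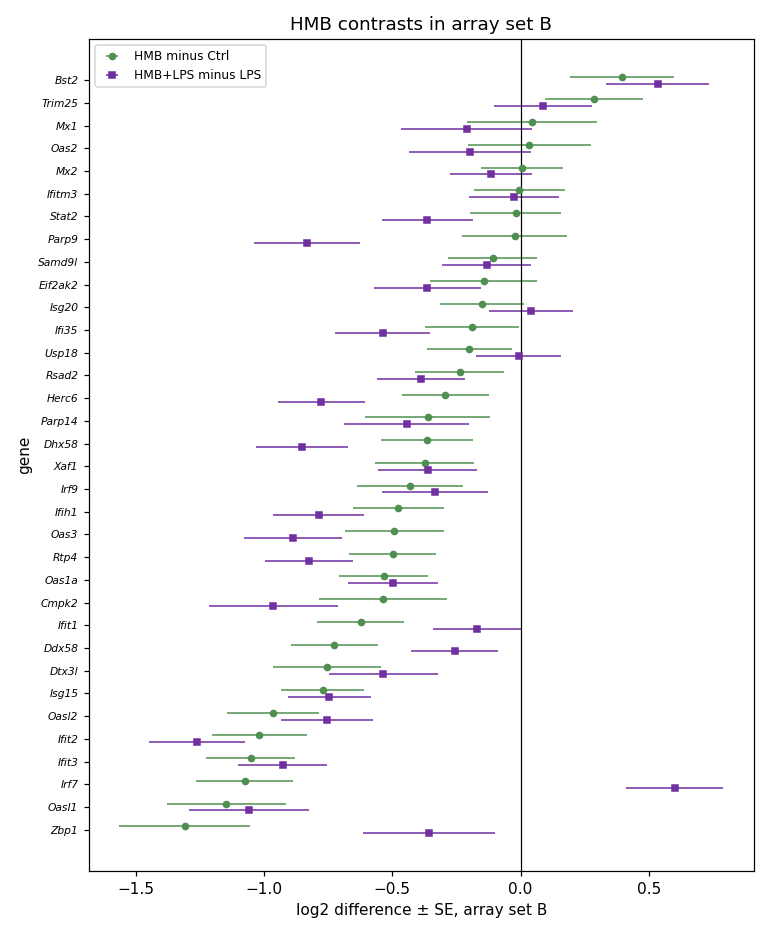
Log2 differences ± SE (x axis) for HMB minus Ctrl (circles) and HMB+LPS minus LPS (squares) in array set B, 2 arrays per group, for each of the 34 genes (y axis, ordered by HMB minus Ctrl). Values run from −1.31 to 0.60, and 29 of 34 lie below 0 for HMB minus Ctrl.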

How the data were processed

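RNA of 22 mouse BMDM samples was measured on Clariom S arrays, with 1 column per array. The authors deposited log2 values, from 0.97 to 19.44 in the table of 28846 probe sets. How they corrected background and normalized is not given in the sources used here, and the values were used as deposited (array medians 5.73 to 6.01). Control probe sets (6640) were left out, and 22206 were tested. A gene symbol was paired with 19572 probe sets by the platform annotation, and each gene was read from its probe set of highest mean. The members and the gene lists were chosen with earlier results of these data known.

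Linear models with moderated variances were fitted with limma (version 3.58.1, R version 4.3.3), and two-sided p-values were adjusted over 22206 probe sets by Benjamini-Hochberg (threshold 0.05), with 4 group means over all arrays, 4 group means within each array set, and 8 means for differences between sets. The fit was tested on simulated data. Arrays of set B had a position above 0.5 between numbers 1 to 4 (0) and numbers 5 and 6 (1). Same-numbered Ctrl and HMB arrays deviated together in all 6 pairs (r = 0.183 to 0.627 over all probe sets). The values were 0.545 to 0.615 for LPS with HMB+LPS at numbers 2, 4 and 6, −0.515 and −0.516 at numbers 3 and 5, whose arrays lie in different sets, 0.0761 to 0.421 for HMB with HMB+LPS, and −0.381 to 0.462 for Ctrl with LPS. As not every pair across LPS exceeded 0.1 and the labels state no pairing, the replicate block was kept as an alternative. The rule for named genes was all members, with values by array for those called for LPS, for the 3 largest and 3 smallest effects of each set and for Irf7, Ifit1, Isg15, Mx1, Oas1a, Rsad2, Stat2, Irf9 and Usp18. To save space, other members called only in set B are given by the edges of their ranges, and set A by ranges for some. In other lists, up to 6 genes called per list and set were to be named by p, and 14 always. Some of these are counted but not named. Alternatives were quantile normalization, a filter on dim probe sets, a replicate block, array quality weights, the array set as a block, the 2 groups alone, the methods' unpaired t-test, a shared spread, arrays of high control separation, and each array left out in turn. No member had a second probe set to try. The number of arrays limits the precision, since arrays give no read depth.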

Additional observations from a re-analysis of the deposited data

Results flagged for a closer look

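In 8 of 140 groups of samples tested (each matched gene in each group of 5 or 6 arrays, all sets together, and the mean over the genes), the lowest array lay far from the others by Dixon's criterion, which chance alone meets in about 1 in 20 groups. All 8 were arrays numbered 1. In Ctrl 1, Irf9 was at 9.91 (other Ctrl arrays 11.38 to 11.90), Oas1a at 9.24 (11.49 to 12.38) and Samd9l at 9.50 (12.99 to 14.46). In HMB 1, Stat2 was at 10.16 (other HMB arrays 13.27 to 14.90), Ifit1 at 5.49 (9.54 to 11.76), Usp18 at 8.05 (11.27 to 12.87), Eif2ak2 at 11.59 (13.21 to 13.72) and Samd9l at 8.61 (12.85 to 14.34). No array with LPS met the criterion.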

How the results depend on the processing

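Counts of members called moved with several choices. For LPS minus Ctrl (1) they were 2 after quantile normalization, with the filter on dim probe sets, without the arrays of low control separation or without both arrays numbered 1, 4 with the array set as a block, 0 with array weights, and 0 by the methods' t-test after Benjamini-Hochberg against 9 unadjusted. The 2 with the filter were 6.45% of 31 members, where 8.23% of 6291 probe sets were called. For HMB+LPS minus HMB (3) they were 5 after quantile normalization, 6 with the set as a block or with 8 means, 0 by the t-test after adjustment and 10 before it. For the averaged effect (11) they were 6 with array weights or without low-separation arrays and 17 with the set as a block. In set A, a shared spread gave 2, 4 and 9 for LPS minus Ctrl, HMB+LPS minus HMB and the averaged effect. Leaving out both arrays numbered 1 gave 5, 7 and 13. The filter gave 8 for the averaged effect, or 25.8% of 31 members, where 47.5% of 6291 probe sets were called. In set B, a shared spread gave 0, 1 and 2, and 0 for HMB+LPS minus LPS, while the filter gave 29 for LPS minus Ctrl, 11 for HMB minus Ctrl and 17 for HMB+LPS minus LPS. The difference between sets was called for 6 members (LPS minus Ctrl) and 17 (averaged) without both arrays numbered 1, and for 1 after quantile normalization and 2 with the filter (averaged). With the filter this was 6.45% of 31 members, where 25.5% of 6291 probe sets were called. The causes were not tested.

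The labels state no pairing by replicate number. With the replicate block the counts for LPS minus Ctrl and HMB+LPS minus HMB were 4 and 8 over all arrays, 13 and 10 in set A and 0 and 11 in set B, those for the averaged effect were 16 in set A (5 higher, 11 lower) and 12 in set B, and that for HMB+LPS minus LPS in set B was 0. Under the block 22.1% of all probe sets were called for the averaged effect in set A. For LPS minus Ctrl and HMB+LPS minus HMB the shares were 3.02% and 5.26% over all arrays. They were 11.4% and 14.7% in set A, and 1.77% for HMB+LPS minus HMB in set B. Other counts were within 1.5 times, leaving aside the contrasts of set B that rested on LPS 6 under the block. Set A without the arrays of low control separation, where 1 array per group with LPS remains, is left aside too. With single arrays left out the counts ran from 0 to 3, 1 to 4 and 7 to 15 over all arrays, from 0 to 3, 0 to 3 and 4 to 8 in set A, from 0 to 8, 9 to 16 and 20 to 24 in set B, from 0 to 6 for the averaged difference between sets, and were 0 in every run for the HMB contrasts and for the difference between sets in LPS minus Ctrl.

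Directions turned for 8 members, each for the averaged effect in set A. With the replicate block these were Oasl2 (−0.70), Ifih1 (−0.19), Ddx58 (−0.30), Parp9 (−0.39), Eif2ak2 (−0.10) and Samd9l (−1.02). Without both arrays numbered 1 they were Isg15 (−0.0503), Oasl2 (−0.68), Ifih1 (−0.16), Ddx58 (−0.32), Parp9 (−0.39), Eif2ak2 (−0.0604) and Samd9l (−0.97). The block also takes number 1 out of this effect, so both fits are not separate checks. With single arrays left out, Oasl2 ran from −0.33 to 0.46, Ddx58 from −0.0842 to 0.46, Parp9 from −0.15 to 0.27 and Samd9l from −0.44 to 0.57, each lowest without HMB 1, and Oas3 from −0.48 without HMB 1 to 0.17 without Ctrl 4. Without low-separation arrays Oasl2 was at −0.0195. In set B 0 members turned. The block within a set, the fit without low-separation arrays within set A and the fit without both arrays numbered 1 were chosen after seeing the data.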
